A study of Mus musculus with 68 samples.

Results

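Chemokine transcripts were followed in mouse embryonic fibroblasts (MEFs) under endoplasmic reticulum (ER) stress. The set held 10 chemokine genes chosen by name, with earlier results of these data known: Cxcl1, Cxcl2, Cxcl5, Ccl20, Ccl2, Ccl7, Cxcl12, Cxcl10, Ccl5 and Cx3cl1. Of these 10, 9 were found by Ensembl identifier among the 13378 genes listed for founder or F1 cells, and Ccl5 was not analysed here. MEFs came from 8 inbred founder strains: A/J (A), C57BL/6J (B6), 129S1Sv/ImJ (129), NOD/ShiLtJ (NOD), NZO/H1LtJ (NZO), CAST/EiJ (CAST), PWK/PhJ (PWK) and WSB/EiJ (WSB). They also came from 5 F1 crosses of B6 with CAST, 129, NOD, NZO or WSB, called xCAST, x129, xNOD, xNZO and xWSB. Cells of each genotype were given tunicamycin (TM), an inhibitor of N-linked glycosylation in common use to provoke the unfolded protein response, at 2 ug/ml for 4 h, or 0.1% DMSO as control. The 40 founder and 28 F1 libraries gave 2 or 3 libraries in each arm of each genotype. Cells of a genotype were a mixture from several females of 1 litter, so the p-values measure the spread between cultures of that 1 mixture, which may be technical, and a genotype cannot be told apart from its litter and cell preparation.

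Chemokines are small secreted proteins that draw leukocytes along gradients by binding G-protein-coupled receptors. Cxcl1, Cxcl2 and Cxcl5 bind Cxcr2 and draw neutrophils, Ccl20 binds Ccr6 on some lymphocytes and dendritic cells, and Ccl2 and Ccl7 bind Ccr2 and draw monocytes. Cxcl10 is an interferon-inducible ligand of Cxcr3, Cxcl12 is a largely constitutive stromal ligand of Cxcr4, and Cx3cl1 is made as a membrane-tethered protein that binds Cx3cr1. Fibroblasts make many of them during inflammation, and NF-kB is a well-known activator of several of the inducible ones.

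The 3 ER stress genes of the treatment check, the chaperone gene Hspa5, the transcription factor gene Ddit3 and the ER degradation gene Herpud1, rose in all 13 genotypes (limma, adjusted p under 0.01 and at least 1.5-fold, the rule for a call throughout). Reads on genes ran from 7091923 to 21530282 per founder library and from 6442976 to 29528457 per F1 library, so that 1 read was worth 0.0266 to 0.147 of the normalized value used here. That value is a read count scaled per library and not divided by gene length, so levels were compared within a gene and, because founder and F1 tables were scaled separately, within a set. The 10 fibroblast markers summed to between 16940 and 54700 in founder libraries and between 13110 and 34000 in F1 libraries, where the 11 and 7 of 14 myeloid markers listed summed to between 4.94 and 71.8 and between 3.71 and 30.6. The myeloid sum was lower in every TM library than in every control library of its genotype in A, B6, 129, NOD, NZO, CAST, xCAST, x129 and xNZO, and its part in the changes below was not tested. WSB control 2, xNOD control 3 and xNZO control 3 stood apart from their group in myeloid markers, with sums of 45.7, 30.6 and 28.8 against 5 in the other WSB control and 5.31 to 13.7 in the other controls of those crosses. The same libraries held endothelial sums of 21.96, 17.8 and 9.75 against 3.24 to 3.60 in the other controls of the 3 genotypes. Epithelial sums were 46.4 against 5 in WSB and 26.7 against 7.06 and 8.08 in xNOD, while in xNZO that library was the lowest (19.6 against 26.7 and 27.2). Members raised were 6 in WSB with and 5 without that library (1 fit over all founder libraries), 6 and 2 in xNOD, and 6 and 6 in xNZO. In bulk RNA, fewer cells making a transcript and less transcript per cell cannot be told apart.

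The sequences just upstream of the start sites are shown because 4 of the 6 members searched shared a motif there. No promoter was matched for Cxcl5, Ccl2 and Ccl7, which were not searched. RefSeq promoters of build GRCm38.p6 were matched for Cxcl1, Cxcl2, Ccl20, Cxcl10, Cxcl12 and Cx3cl1, and the 250 bases before each start were searched on both strands. Capitals mark matches to the 10-base NF-kB consensus (kB); where matches overlapped, their union is in capitals.
Cxcl1 upstream (chr5:90890995-90891244, plus strand): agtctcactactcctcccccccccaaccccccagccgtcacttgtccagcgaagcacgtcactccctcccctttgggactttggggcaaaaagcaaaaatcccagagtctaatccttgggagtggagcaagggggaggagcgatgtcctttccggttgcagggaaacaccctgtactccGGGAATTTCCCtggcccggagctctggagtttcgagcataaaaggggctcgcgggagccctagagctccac
Cxcl2 upstream (chr5:90903649-90903898, plus strand): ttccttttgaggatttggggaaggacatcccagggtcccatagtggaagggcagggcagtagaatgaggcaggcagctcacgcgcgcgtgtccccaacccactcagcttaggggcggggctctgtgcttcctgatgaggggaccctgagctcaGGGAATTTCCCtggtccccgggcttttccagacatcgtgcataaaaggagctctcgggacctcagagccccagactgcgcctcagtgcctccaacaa
Ccl20 upstream (chr1:83116516-83116765, plus strand): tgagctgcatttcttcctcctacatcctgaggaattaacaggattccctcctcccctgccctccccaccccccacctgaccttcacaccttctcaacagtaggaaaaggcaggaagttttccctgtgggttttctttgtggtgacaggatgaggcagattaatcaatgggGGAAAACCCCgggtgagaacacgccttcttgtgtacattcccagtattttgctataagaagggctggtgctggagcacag
Cxcl10 upstream (chr5:92348890-92349139, minus strand): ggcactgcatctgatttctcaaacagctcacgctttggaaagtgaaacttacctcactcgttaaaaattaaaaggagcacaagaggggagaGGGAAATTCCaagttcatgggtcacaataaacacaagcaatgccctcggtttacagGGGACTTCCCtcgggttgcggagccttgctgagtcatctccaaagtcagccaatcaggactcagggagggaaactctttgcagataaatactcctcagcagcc
Cxcl12 upstream (chr6:117168285-117168534, plus strand): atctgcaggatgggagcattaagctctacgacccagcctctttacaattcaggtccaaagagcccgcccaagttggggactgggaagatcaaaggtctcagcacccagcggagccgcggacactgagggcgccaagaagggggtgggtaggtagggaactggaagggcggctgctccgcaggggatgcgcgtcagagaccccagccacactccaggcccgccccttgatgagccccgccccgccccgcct
The capitals are the same run of letters in Cxcl1 and Cxcl2, matched on both strands, between 71 and 61 bases before the start in Cxcl1 and between 97 and 87 bases before it in Cxcl2. Ccl20 held 1 match, from base -80 to base -71, and Cxcl10 held 2 separate ones, from -159 to -150 and from -103 to -94. Cxcl12 and Cx3cl1 held none. The consensus was found in 3.9% of all 32851 promoter windows of this length. Of other motifs, the AP-1 letters TGANTCA (6.75% of windows), CCAAT (33.8%) and an interferon-response element pattern (2.98%) were each found in Cxcl10 among the 6 members matched, and TGATGNAA (3.45%) in none of them. These matches describe the letters only, in the B6-derived reference assembly, and no binding was measured.

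Of the 3 neutrophil attractants, Cxcl1 rose in 8 of 8 founder strains, Cxcl2 in 7 of 8 and Cxcl5 in 6 of 8, where 2.4% of all founder gene by genotype tests were called raised. Ccl20 rose in 8 of 8, Ccl7 in 6 of 8, Ccl2 in 5 of 8 and Cxcl10 in 1 of the 6 strains in which it passed the filter on low values. Cxcl12 and Cx3cl1 were called in none of the 13 genotypes. In the F1 crosses, Cxcl1, Cxcl2, Cxcl5, Ccl20, Ccl2 and Ccl7 each rose in 4 of 5, against 2.54% of all F1 tests, and the cross without a call was xWSB in each case. Cxcl10 rose in x129, 1 of the 4 crosses in which it was tested. No member was called lowered by limma, edgeR or DESeq2, where 1.55% of founder and 1.47% of F1 tests were called lowered by limma.

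**Figure D1:**
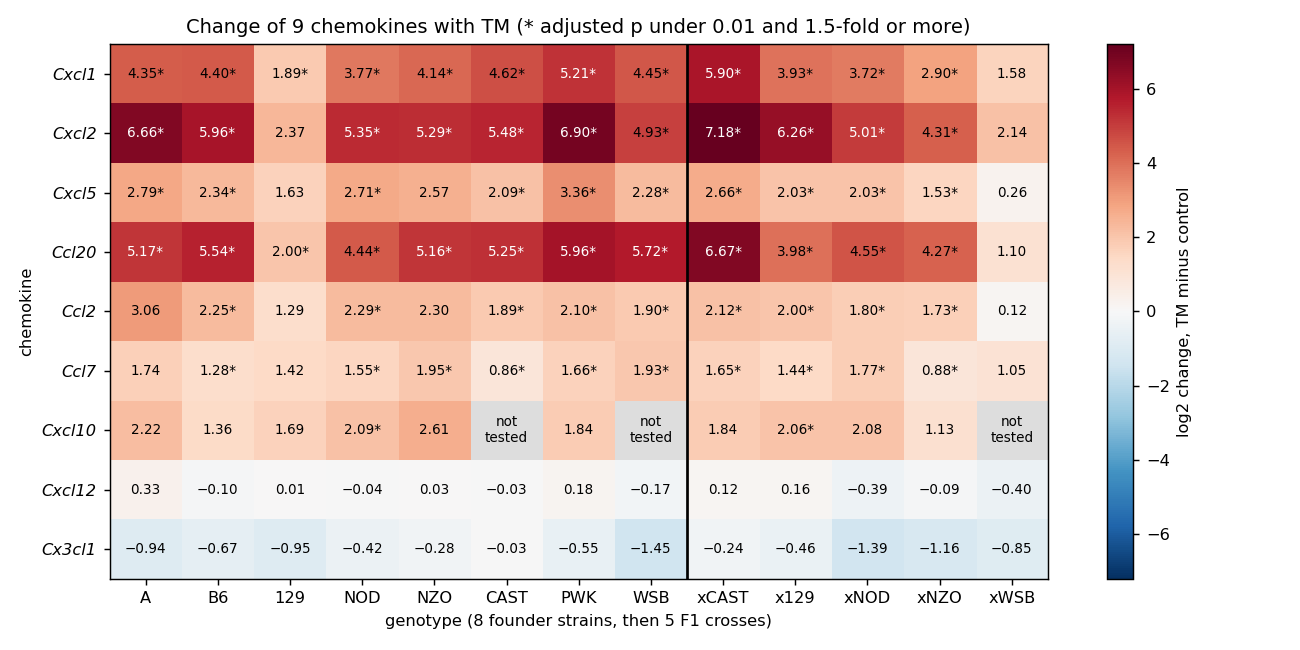
Log2 change (TM minus control, on the log2(value + 0.1) scale) of 9 chemokines in rows and 13 genotypes in columns, from red for higher to blue for lower with TM, with founders left and F1 crosses right of the line and an asterisk for a call. Cxcl1, Cxcl2 and Ccl20 have the largest values in most columns, with smaller ones in 129 and xWSB, Cxcl12 lies between -0.40 and 0.33, and Cx3cl1 is below 0 in every genotype.

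Cxcl1 was low in unstressed B6 cells, at 0.644 and 0.506, and reached 13.4 and 14.8 with TM. CAST controls were at 0.829 and 0.741 and WSB controls at 0.745 and 0.882. NZO controls (3.14 and 2.69), A controls (3.14, 3.37 and 3.97), PWK controls (3.73, 3.94 and 3.00) and NOD controls (3.30 and 4.35) formed a middle group between 2.69 and 4.35. The 129 controls stood alone at 12.8 and 13.5, a mean 22.9 times that of B6. With TM, the order changed. B6 was lowest, WSB (25.7, 17.02 and 17.7) and CAST (20.2 and 23.0) overlapped, and 129 (49.4, 44.6 and 53.2) overlapped both NOD (60.7, 56.9 and 43.4) and NZO (56.2, 56.4 and 47.1). A reached 60.6 to 90.5 and PWK 114 to 146, the highest of the 8 strains. Fold changes ran from 3.70 in 129 (log2 1.89 ± 0.16 SE, adjusted p = 0.00536) to 36.9 in PWK (5.21 ± 0.13, adjusted p = 1.20e-11), by limma. No TM library overlapped a control library of its own genotype in any of the 13 genotypes, where 22.5% of founder and 19.4% of F1 gene by genotype tests had every TM library above every control library.

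Cxcl2 was near the detection limit in controls, with at most 13 reads in any founder control library and 5 in any F1 control library. PWK gave 0.444, 0.563 and 0.706 in controls and 82.3, 75.7 and 79.9 with TM, a 119.8-fold rise (log2 6.90 ± 0.16, adjusted p = 1.13e-11, limma). A went from 0.539, 0 and 0.340 to 26.4, 33.6 and 32.2. In 129 the controls were at 0.746 and 0.328 and TM libraries reached 3.34, 2.52 and 3.27, the lowest TM values of any founder strain and with no overlap with any other. That change, log2 2.37 ± 0.38, did not pass (adjusted p = 0.033, limma). The mean TM level in PWK was 26.1 times that in 129. Where a control arm held only a few reads, the ratio of summed reads, over libraries with whole reads recovered, gave 88.8 in CAST (95% exact interval 30.0 to 434, from 3 control reads) and 37.3 in WSB (10.0 to 312, from 2 control reads), intervals that cover counting error only.

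Cxcl5 differed between strains before treatment as well as after it. B6 controls were at 4.10 and 3.34 and NOD controls at 5.35 and 3.28, while PWK controls stood at 35.8, 35.6 and 36.4. TM brought B6 to 18.8 and 19.6 and PWK to 417, 378 and 319.5, so that PWK was highest and B6 lowest in both arms. CAST went from 27.2 and 24.1 to 121 and 99.1. The changes were more alike than the levels, from 3.10-fold in 129 (adjusted p = 0.0107, not passing) to 10.2-fold in PWK (log2 3.36 ± 0.10, adjusted p = 6.31e-11, limma).

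Ccl20 ranged from a few reads to clear expression in controls. PWK controls had 0, 0.102 and 0, CAST controls 0.155 and 0, and B6 controls 0.184 and 0.203. A controls reached 1.91 to 2.87 and 129 controls 7.003 and 5.65, above every control of the other strains. TM libraries of A were highest (70.0, 95.1 and 87.0), and those of 129 (28.2, 22.3 and 26.1) overlapped NZO (18.8, 15.5 and 28.7). The change was 3.99-fold in 129 (log2 2.00 ± 0.19, adjusted p = 0.0069) and 46.6-fold in B6 (5.54 ± 0.29, adjusted p = 3.26e-10), by limma. In strains with 3 or fewer control reads the ratio of summed reads was 188 in PWK (51.5 to 1564), 71.2 in WSB (24.1 to 347) and 61.1 in CAST (20.5 to 299), each with its 95% exact interval.

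**Figure D2:**
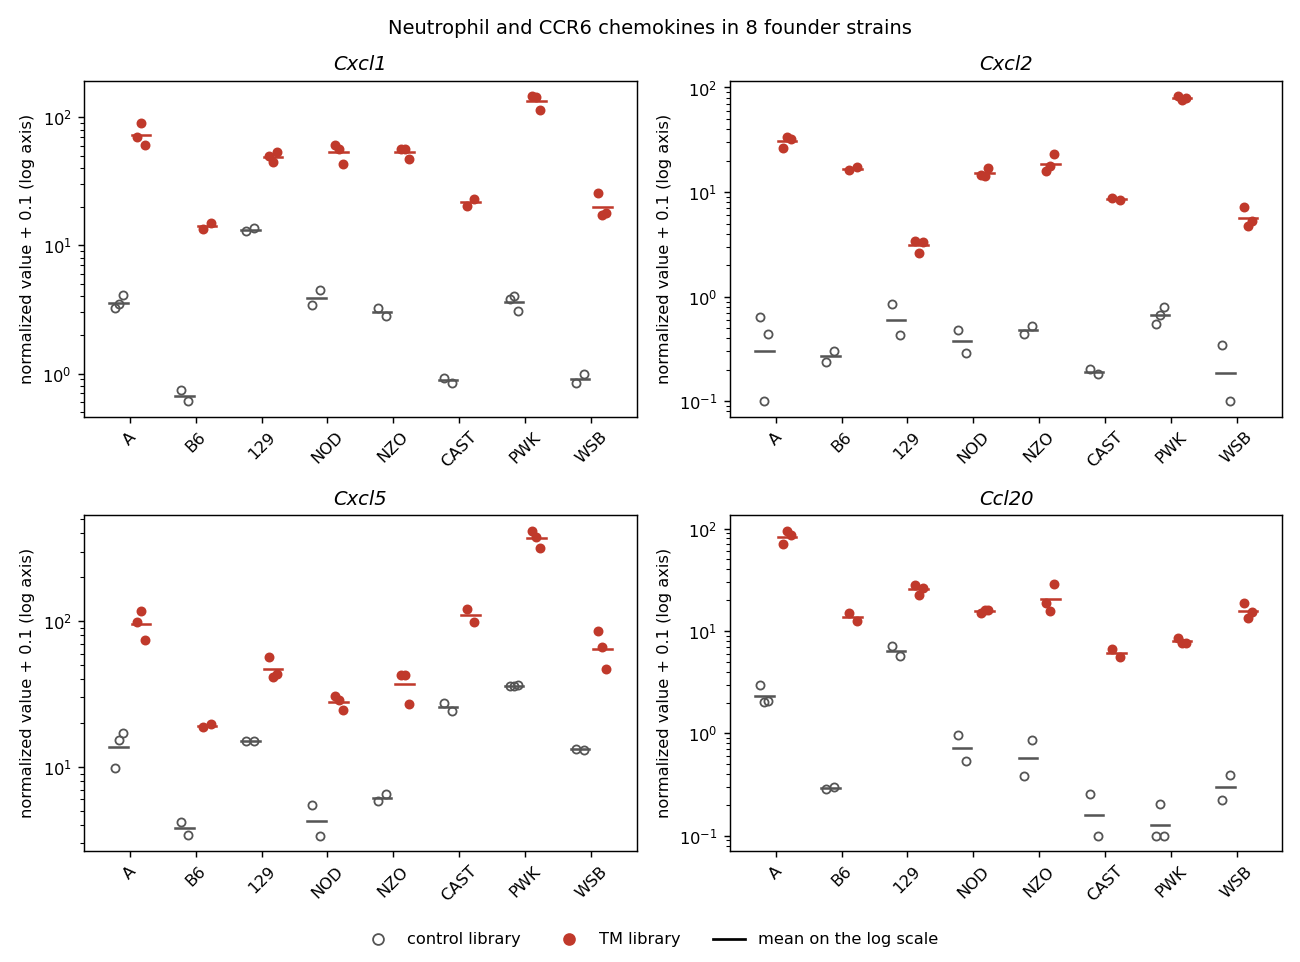
Normalized value + 0.1 on a log axis for Cxcl1, Cxcl2, Cxcl5 and Ccl20 in each founder library, with open circles for control, filled circles for TM and bars for the mean on the log scale. The 129 controls are highest for Cxcl1 and Ccl20, the 129 TM libraries are lowest for Cxcl2, and the PWK TM libraries are highest for Cxcl1, Cxcl2 and Cxcl5.

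The monocyte attractants Ccl2 and Ccl7 had smaller changes than Cxcl1 and Cxcl2 in each of the 8 founder strains. Ccl2 was at 21.3 and 20.7 in B6 controls and at 152 and 137 in 129 controls. B6 rose to 90.8 and 111 (4.77-fold, log2 2.25 ± 0.10, adjusted p = 5.12e-11, limma), NOD rose from 76.0 and 70.4 to between 317 and 391.6, and PWK from between 86.8 and 98.4 to between 306 and 469.9. The 129 TM libraries were at 391, 345 and 323, overlapping NOD and PWK, with a change of 2.44-fold that did not pass (adjusted p = 0.0112). A had the largest change, 8.35-fold, but its libraries ranged from 9.79 to 35.6 in controls and from 104 to 304 with TM, and it did not pass (log2 3.06 ± 0.53, adjusted p = 0.0361). Ccl7 changes lay between 1.82-fold in CAST (adjusted p = 0.00515) and 3.86-fold in NZO (adjusted p = 0.00625), and 129 held the highest control mean (64.9) and the highest TM mean (179).

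Cxcl10 values rested on few reads, with 0 to 20 per founder control library and 0 to 73 per founder TM library. NOD rose from 0.956 and 0.757 to 4.601, 4.16 and 3.20 (log2 2.09 ± 0.27, adjusted p = 0.0031, limma). A went from between 0.718 and 1.00 to between 3.90 and 5.12 without passing (log2 2.22 ± 0.28, adjusted p = 0.0108). In CAST the summed reads were 3 in controls and 3 with TM, a ratio of 1.14 (95% exact interval 0.153 to 8.50), and in WSB 3 and 5, a ratio of 1.28 (0.249 to 8.25), so no change was detectable at this depth there. In x129 Cxcl10 went from 0.0918, 0.0977 and 0.0474, or 1 to 2 reads per library, to 0.885, 0.704 and 0.408 (log2 2.06 ± 0.43, adjusted p = 0.00867, limma). The TM mean was highest in A, at 4.34.

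Cxcl12 and Cx3cl1 were not called in any genotype. Cxcl12 differed between strains in the same order in both arms, from PWK (20.6, 26.1 and 23.7 in controls, 25.5, 28.3 and 25.4 with TM) up to 129 (87.6 and 90.4, then 74.9, 90.9 and 107), while its change ran from -0.17 in WSB to 0.33 in A among founders. Of its 13 changes, 1 had an unadjusted p under 0.05 by limma. Cx3cl1 was lower with TM in log2 mean in 13 of 13 genotypes, from -0.03 in CAST to -1.45 in WSB, with TM libraries wholly below controls in 4 of 8 strains and 4 of 5 crosses, where 23.7% of founder and 20.3% of F1 tests did so. WSB went from 6.08 and 5 to 1.31, 2.34 and 2.40 (adjusted p = 0.0192) and xNOD from between 1.88 and 2.16 to 0.611 and 0.838 (adjusted p = 0.0123). Of the 13, 7 had an unadjusted p under 0.05 and none passed by limma, edgeR or DESeq2. The share of all genes under that unadjusted p was not determined. Both WSB and xNOD passed when all libraries of a set shared 1 estimate of the spread (adjusted p = 0.00951 and 0.00719).

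Counts of raised members differed between genotypes. Members rose in 6 of 9 tested in B6 (5.04% of all genes were raised), 7 of 9 in NOD (1.45%), 6 of 8 in CAST (2.54%), 6 of 9 in PWK (6.36%) and 6 of 8 in WSB (2.85%). They rose in 4 of 9 in A (0.346%), 4 of 9 in NZO (0.32%) and 2 of 9 in 129 (0.315%), strains in which few genes passed at all and in which the median residual SD was 0.35 (A), 0.236 (NZO) and 0.237 (129) against 0.105 in B6. Leaving out 129 TM 2 took the count in 129 from 2 to 0, and leaving out 129 TM 1 or 129 TM 3 took it to 4 or 5. Leaving out NZO TM 1 or NZO TM 2 took the count in NZO from 4 to 0 and leaving out NZO TM 3 took it to 7, and without A TM 1, 2 or 3 it was 2 in A. With 1 shared estimate of the spread the counts were 7 in A, 7 in NZO and 5 in 129. Median log2 changes of the members ranged from 1.63 in 129 to 2.79 in A, beside medians of all tested genes between -0.04 and 0.01.

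Whether the strains differed in the change was tested by the strain by TM interaction over the 40 founder libraries. Cxcl1 ranked 1 of 13197 genes (adjusted p = 5.62e-07, limma), Ccl20 ranked 7 (adjusted p = 0.000482) and Cxcl2 ranked 15 (adjusted p = 0.0046), so 3 of 9 members passed where 0.174% of all genes did. The study had already named these 3 among its genes with the most significant strain effect, and the members were chosen with such results known. The count is therefore no independent evidence about chemokines. Cxcl5, Ccl2, Ccl7, Cxcl10, Cxcl12 and Cx3cl1 did not, with adjusted p from 0.2 for Cxcl5 upward. Against B6, the log2 change in 129 was smaller by -2.51 ± 0.29 for Cxcl1 (adjusted p = 1.43e-05) and by -3.55 ± 0.53 for Ccl20 (adjusted p = 0.00111), 2 of the 6 genes called in that contrast (0.0455% of all genes), and by -3.58 ± 0.70 for Cxcl2 without passing (adjusted p = 0.0251). No member passed in the contrasts of the other 6 strains with B6, where 0.0152% (NZO), 0.00758% (CAST) and 0% (A, NOD, PWK and WSB) of genes did. With 129 left out, a choice made after seeing the data, none of the 9 members passed the interaction over the other 7 strains (limma). Cxcl1 had adjusted p = 0.228, and 3 genes in all passed. An unadjusted p under 0.05 was seen for 4 of 9 members, and there a p of 0.035 (Cxcl2) ranked 422 of 13193 genes. Leaving out the library 129 control 2 left Cxcl1 as the only member called (adjusted p = 5.16e-05), with Ccl20 at 0.0187 and Cxcl2 at 0.102. Cxcl2 also lost its call without any 1 of 8 further libraries, with adjusted p of 0.0107 (129 control 3), 0.0126 (129 TM 1), 0.0217 (129 TM 2), 0.0116 (129 TM 3), 0.0111 (PWK control 1), 0.0111 (PWK TM 1), 0.0103 (PWK TM 2) and 0.0101 (PWK TM 3).

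Levels were tested apart from changes. Over 8 strains the control level differed for 7 of 9 members, all but Cxcl2 (adjusted p = 0.212) and Cxcl10 (adjusted p = 0.0249), where 35.8% of all genes differed. The TM level differed for 9 of 9, where 37.4% of all genes did, with Cxcl2 at adjusted p = 2.56e-12 and Cx3cl1 at 0.000781 (limma). For Cxcl2 a strain difference passed with TM and did not pass in controls, where each founder library held 0 to 13 reads. At so few reads the control test cannot show that the strains were alike before TM. A test of log2(TM/median control) across strains called 5 members, Cxcl1, Cxcl2, Cxcl5, Ccl20 and Cxcl10, where 2.9% of genes passed. It takes each strain's control as known without error. In simulated data it gave many false calls among genes without a planted strain difference in the change.

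Across the 8 strain means of log2 change, Ccl20 was the gene most like Cxcl1 among 1074 induced genes (Pearson r = 0.979), and Cxcl1 the gene most like Ccl20. Next came Vps37c (0.954) and Edem1 (0.926) for Cxcl1, and Edem1 (0.944) and Vps37c (0.911) for Ccl20. These are descriptions over 8 points that share the low 129 value, and several changes of Cxcl2 and Ccl20 rest on controls with 3 reads or fewer. Partners were picked by the highest r among 1074 or 1075 genes, and the r that such a choice gives by chance was not tested. None is given for Cxcl10, which was not tested in CAST and WSB. Cxcl2 was most like Dcp1b (0.956), Prdm1 (0.951) and Nlrp3 (0.918), Cxcl5 most like Csf2 (0.946), Nfkb2 (0.941) and Prag1 (0.94), and Ccl2 most like Nlrp3 (0.944), Bcl3 (0.918) and Pdgfb (0.869). Ccl7 was most like Trmt61b (0.947), Lonp1 (0.937) and 1810032O08Rik (0.905), and Cxcl12 most like Slc7a3 (0.957), Zfp110 (0.945) and Prr32 (0.944). Cx3cl1 was most like Cblb (0.983), Arhgap29 (0.975) and Mdm4 (0.952). The interaction did not pass for Cxcl5, Ccl2, Ccl7, Cxcl12 or Cx3cl1, so strain differences in their changes were not established. Between members, r was 0.912 for Cxcl1 with Cxcl2 and 0.846 for Cxcl2 with Cxcl5, and 0.0718 for Cxcl1 with Ccl7.

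The F1 crosses were set beside their parents by the change within each genotype, since levels of the sets were scaled separately, and the 5 comparisons share the B6 libraries. In xCAST the change was above both parents for 7 of 9 members and below both for 0, where 32.4% of all genes were above both and 39.8% below. Cxcl2 in xCAST went from 0.174 and 0.151 to 34.1, 40.5 and 39.5, log2 7.18 ± 0.20, beside 5.96 in B6 and 5.48 in CAST. Its difference from the mean of the parents, 1.46 ± 0.26, ranked 4 of 12567 genes without passing (adjusted p = 0.143). Cxcl1 changed by 5.90 in xCAST, beside 4.40 in B6 and 4.62 in CAST (difference 1.39 ± 0.27, adjusted p = 0.246), and Ccl20 by 6.67, beside 5.54 and 5.25 (1.28 ± 0.48, adjusted p = 0.773). Ccl20 reads in xCAST were 1 in 2 control libraries and 759 in 3 TM libraries, and Cxcl5 rose there from 32.6 and 30.8 to 208, 247 and 157, the highest of the crosses. No gene passed in this cross (0%), and 4 of 9 members had an unadjusted p under 0.05. A p of 0.054 there (Cxcl5, limma) ranked 771 of 12567 genes.

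Cxcl1 and Cxcl2 changed more in x129 than in 129. Cxcl1 went from 1.70, 1.37 and 2.09 to 28.7, 27.9 and 25.4 (log2 3.93 ± 0.16), beside 4.40 in B6 and 1.89 in 129. Cxcl2 had 1 read in 3 control libraries and 344 in 3 TM libraries, a ratio of 550.3 with a 95% exact interval of 98.1 to 2.18e+04, and its fitted change, 6.26, was near that of B6 (5.96) and above that of 129 (2.37). Against 129, Cxcl1 (difference 2.04, adjusted p = 0.0017) and Cxcl2 (3.89, adjusted p = 0.0017) were the 2 genes called among all tested (0.0159%), and Ccl20 differed by 1.99 without passing (adjusted p = 0.026). Against B6 and against the mean of the parents no gene passed (0% in both), with 2 of 9 members at an unadjusted p under 0.05 against the mean. These were Cxcl2 and Cxcl1, ranked 1 and 7 of 12563 genes. Ccl20 stayed at 1.88, 1.56 and 2.09 in x129 controls, above every control of xCAST, xNOD and xNZO.

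In xNZO, the signed log2 change of 8 of 9 members lay below that of both parents (35.5% of all genes did). Among these was Cx3cl1, which fell more in the F1 (-1.16) than in B6 (-0.67) or NZO (-0.28). Cxcl1 went from 1.83, 2.06 and 1.07 to 13.2, 12.0 and 12.3 (log2 2.90 ± 0.25, beside 4.40 in B6 and 4.14 in NZO). Its difference from the mean of the parents was -1.38 ± 0.26 (adjusted p = 0.683, limma). In xNOD 6 of 9 lay below both parents (48.7% of all genes), and Cxcl1 changed by 3.72, beside 4.40 and 3.77. Neither cross gave a gene that differed from the mean of its parents (0% in both). An unadjusted p under 0.05 was found for 5 of 9 members in xNZO and 2 of 9 in xNOD (limma). In xNZO a p of 0.043 (Ccl20) ranked 129 of 12585 genes. In xNOD a p of 0.034 (Cxcl12) ranked 3604 of 12579, so such p-values were common among all genes there. Members rose against control in 6 of 9 in xCAST (2.52% of all genes), 7 of 9 in x129 (4.88%), 6 of 9 in xNOD (3.69%) and 6 of 9 in xNZO (1.44%). The xNOD count fell to 0 without xNOD control 1 or xNOD control 2 and to 2 without xNOD control 3. The xNZO count fell to 0, 2 or 1 without xNZO TM 1, 2 or 3. Cx3cl1 in xNZO controls was at 3.03, 3.24 and 9.82, the last in the library with the high myeloid sum.

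**Figure D3:**
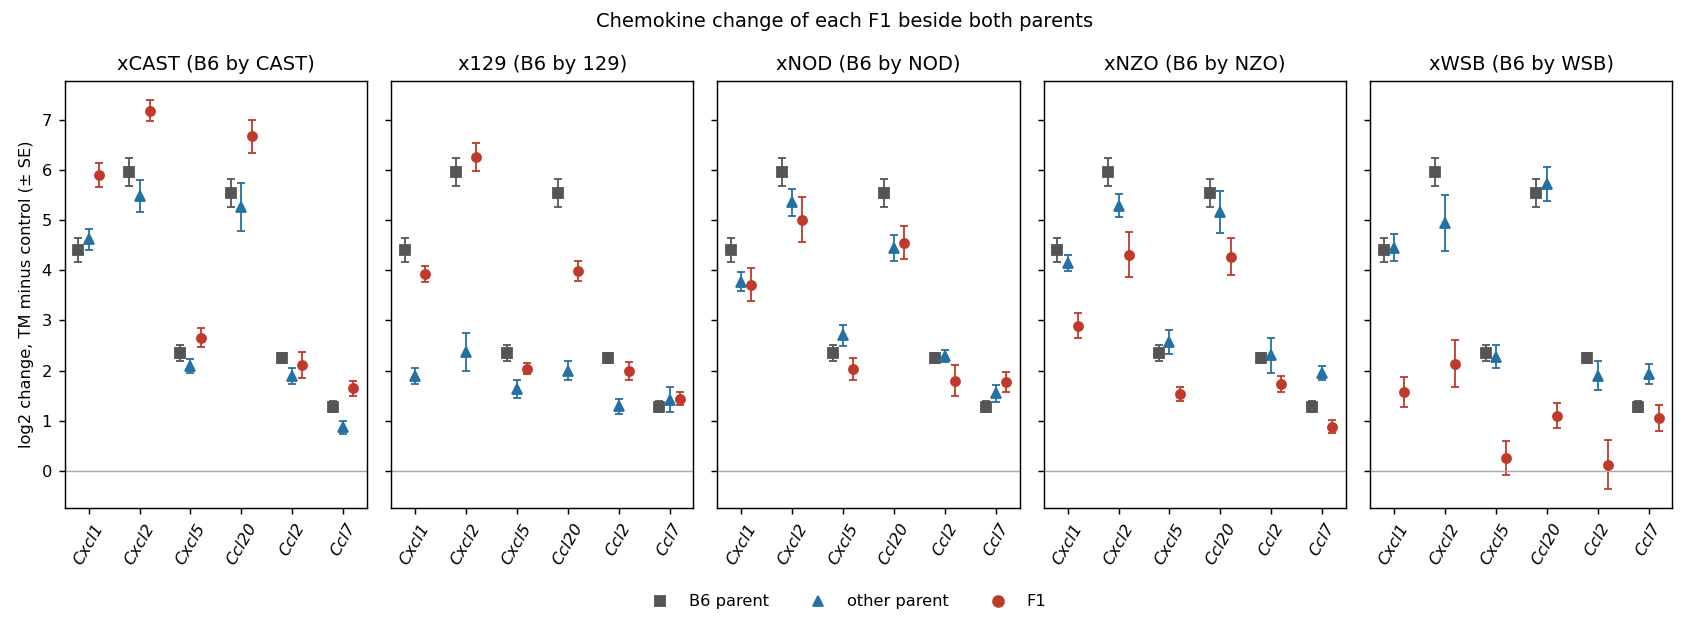
Log2 change (TM minus control, ± SE from the fit within the genotype) of 6 chemokines in B6 (squares), the other parent (triangles) and the F1 (circles), 1 panel per cross. The F1 circles lie above both parents for Cxcl1, Cxcl2, Cxcl5, Ccl20 and Ccl7 in xCAST and below both for all 6 in xWSB, where Cxcl5 and Ccl2 reach 0.26 and 0.12.

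The cross xWSB stood apart. Its controls were the highest of the 5 crosses in mean for Cxcl1 (9.96, 6.81 and 8.03), Ccl20 (16.1, 9.77 and 9.91), Ccl2 (234, 163 and 172) and Ccl7 (90.5, 52.1 and 55.7), with no overlap with any control of the other 4 crosses for these 4 genes. The share of all genes whose xWSB controls stood apart in this way was not determined. With TM, Cxcl1 reached 37.1, 23.9 and 16.8, Ccl20 28.8, 25.5 and 21.2, and Cxcl2 1.56, 1.64 and 1.50, the lowest of the crosses. Ccl2 with TM was at 488, 166 and 105, on both sides of its controls. No member was called raised in xWSB (0 of 8 tested by limma, against 0.185% of all genes), although 5 of 8 had an unadjusted p under 0.05. edgeR called 0, DESeq2 called 1 and 1 shared estimate of the spread gave 3. Median residual SD was 0.311 in xWSB, against 0.157 (x129) to 0.204 (xCAST) in the other 4 crosses. Every TM library lay above every control for Cxcl1 (2.99-fold), Cxcl2 (4.39-fold), Ccl20 (2.14-fold) and Ccl7 (2.08-fold), as in 19.4% of F1 tests. Cxcl12 and Cx3cl1 lay wholly below (20.3% of F1 tests), and the other members overlapped. The share of all genes under that unadjusted p was not determined. Without xWSB TM 1 the log2 change of Ccl2 went from 0.12 to -0.50 and that of Cxcl5 from 0.26 to -0.11.

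Against the mean of its parents, the change in xWSB was smaller by -4.53 ± 0.33 for Ccl20 (1.10 beside 5.54 in B6 and 5.72 in WSB, adjusted p = 2.53e-05) and by -2.85 ± 0.35 for Cxcl1 (1.58 beside 4.40 and 4.45, adjusted p = 0.00674). These were the 2 genes called of 12590 (0.0159%), ranked 1 and 2. Cxcl2 (-3.31 ± 0.59) and Cxcl5 (-2.05 ± 0.38) ranked 4 and 6 without passing (adjusted p = 0.225 for each). Against B6 alone (0.00794% of all genes) and WSB alone (0.00794%), Ccl20 was the 1 gene called in each. Ccl20 passed in each of 15 fits that left out 1 library of these genotypes, and Cxcl1 in 2 of 15, those without WSB control 3 or xWSB TM 1 (adjusted p 0.000706 to 0.0438 over the 15). In xWSB same-numbered libraries deviated together (r of 0.27, 0.18 and 0.13 over genes). With replicate number as a block in all of these genotypes neither gene passed (Ccl20 -4.38, adjusted p = 0.0412, and Cxcl1 -2.86, adjusted p = 0.331), and with a pseudocount of 1 Cxcl1 did not (adjusted p = 0.101). With the block, the B6 change rested on the 1 same-numbered pair of B6, replicate 3. In xWSB the log2 change of Hspa5 was 2.74, beside 2.85 in B6 and 3.01 in WSB, and that of Ddit3 was 3.18, beside 3.21 and 4.26. Myeloid markers summed to between 8.91 and 13.2 in xWSB controls, within the range of 5.31 to 30.6 in the controls of the other crosses, and the 5 endothelial markers to between 0.83 and 1.17, below every control of the other crosses. The 3 epithelial markers listed summed to between 0.502 and 1.31 in xWSB controls, also below every control of the other crosses (lowest 2.16). Their part in the xWSB values was not tested.

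**Figure D4:**
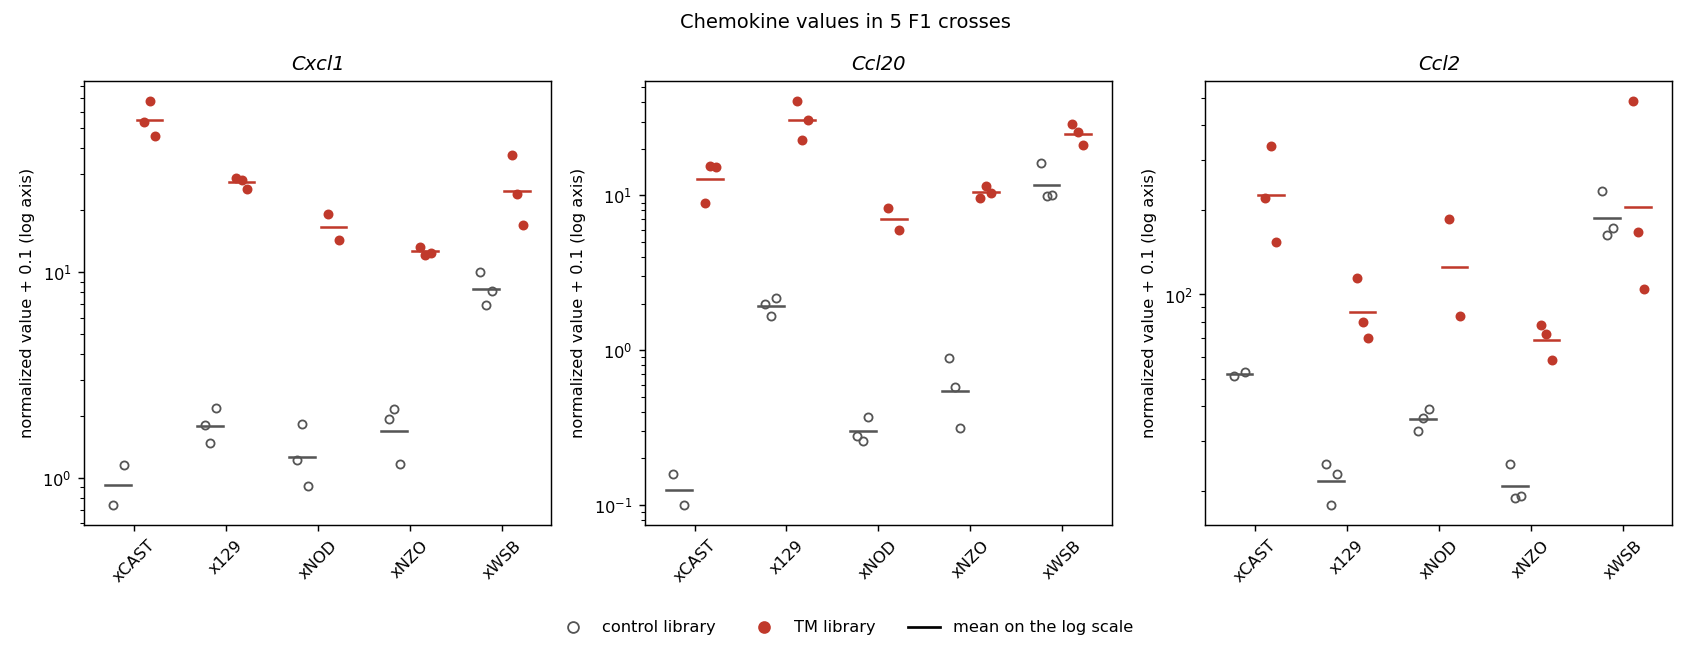
Normalized value + 0.1 on a log axis for Cxcl1, Ccl20 and Ccl2 in each F1 library, open circles for control, filled circles for TM and bars for the mean on the log scale. The xWSB controls are the highest in each panel, and the xWSB TM libraries of Ccl2 lie on both sides of its controls.

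Of 26 other chemokine genes looked for, 12 were listed and tested in at least 1 genotype. Of their 125 tests, 17 were called raised, where 2.4% of founder and 2.54% of F1 tests were, and 2 were called lowered, where 1.55% and 1.47% were. Cxcl3, a further Cxcr2 ligand, rose in 7 of 13 genotypes (A, B6, NOD, CAST, PWK, xCAST and x129), with PWK means of 9.81 in control and 61.7 with TM (log2 2.64 ± 0.12). Cxcl16, a membrane-tethered ligand of Cxcr6, rose in 8 of 13 (A, B6, NOD, NZO, CAST, PWK, xCAST and x129), and in xWSB had means of 27.6 and 33.1. Ccl3 rose in B6 and Ccl9 in PWK, and Cxcl14 fell in B6 (-0.70 ± 0.14) and in PWK (-0.66 ± 0.10). Of 23 receptor or binder genes, 8 were listed, and none was called in 59 tests by limma (11 at an unadjusted p under 0.05). The share of all gene by genotype tests under that p was not determined. Ackr3, an atypical receptor of Cxcl12, had its highest means in PWK, at 5.22 in control and 4.75 with TM. Its TM libraries lay below every control in B6, 129, NZO, CAST, WSB, xCAST, xNOD and xNZO without a call. Of all gene by genotype tests, 23.7% in founders and 20.3% in F1 crosses did so. The means of Cxcr4, Ccr1 and Cx3cr1 with TM were at most 1.33, 1.10 and 0.544 among the genotypes in which they were listed.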

How the data were processed

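Single-end mRNA-seq reads were aligned by the authors with TopHat 1.4.1, per the study's methods to strain-specific assemblies for founders and, for the allele counts of the crosses, to both parental genomes. The submitters' processing notes also name FastQC, Trimmomatic, edgeR and the builds GRCm38 and mm10. The authors scaled reads with edgeR and dropped outlying libraries by principal components within each strain and treatment, so the spread among those kept can be too small. The part of mapping in the strain differences was not tested. The deposited values are named FPKM, but they are a signal: whole read counts scaled per library, with no division by length. In each of the 68 libraries 100% of values lay within 0.02 of a whole number of reads. Only 66 of 68 were taken as recovered, by a separate check, and PWK TM 2 and WSB TM 1 were left out of read counts. F1 tables held 3 unassigned lines with 15.47% to 24.15% of the value, which were left out.

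Values were tested as log2(value + 0.1) with limma 3.58.1 (trended prior) in R 4.3.3, on genes at 0.5 or more in at least 2 libraries of the fit. Adjusted p-values (Benjamini-Hochberg) cover all genes tested, with calls at 0.01 and, for TM against control, at least 1.5-fold. Folds of low genes are understated by the pseudocount and depend on it. TM against control was fitted within a genotype, strain by TM interaction over all founders, and an F1 against its parents over 3 genotypes. Exact 95% intervals of read ratios (Clopper-Pearson, conditional on the summed reads) used scipy 1.17.1. edgeR 4.0.16 and DESeq2 1.42.0 were run on the recovered reads, which leave out PWK TM 2 and WSB TM 1. Scripts were tested on simulated data. Of 54 pairs of libraries within an arm of a genotype, those without recovered reads left out, none agreed within sampling noise.

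The members and lists were chosen with earlier results of these data known. The text names all members, other chemokines, receptors and binders called in at least 1 genotype, the 3 treatment genes, and genes of the most similar strain pattern. Myeloid, endothelial, epithelial and fibroblast markers were summed per library; endothelial sums ran from 0.83 to 21.96 and epithelial from 0.502 to 80.7. Alternatives changed the pseudocount, filter, scaling, prior, fit, tool, replicate block and each library in turn.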

Additional observations from a re-analysis of the deposited data

Results flagged for a closer look

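Groups held 2 or 3 libraries, so no test for a single outlying sample was made. The results here are those in which genotypes differed in the change with TM, by a test or, for Cxcl12, by non-overlap alone. For Cxcl1 (adjusted p = 5.62e-07), Ccl20 (adjusted p = 0.000482) and Cxcl2 (adjusted p = 0.0046) the strain by TM interaction over 8 strains passed (limma). None of these passed with 129 left out or with replicate number as a block, and Cxcl2 lost its call without any 1 of 9 libraries. Under the block the changes of B6 and CAST each rested on 1 same-numbered pair. In 129 the log2 change was -2.51 relative to B6 for Cxcl1 and -3.55 for Ccl20.

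In x129 the log2 change was larger than in 129 by 2.04 for Cxcl1 and by 3.89 for Cxcl2. In xWSB it was lower than the mean of the parents by -2.85 for Cxcl1 and by -4.53 for Ccl20, and for Ccl20 lower than in WSB by -4.62 and than in B6 by -4.44. Neither Cxcl1 nor Ccl20 passed against the mean of the parents of xWSB with replicate number as a block. In both 129 and xWSB the control values of Cxcl1 and Ccl20 were the highest of their set, and whether culture, preparation or genotype set them cannot be told apart.

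Cxcl12 was above every control in the TM libraries of xCAST (log2 change 0.12) and below every control in those of xNOD (-0.39) and xWSB (-0.40). Such non-overlap was common, with 19.4% of all F1 gene by genotype tests wholly above and 20.3% wholly below. That difference between crosses was not tested, and no Cxcl12 change passed on its own.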

How the results depend on the processing

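Across 13 genotypes 66 member by genotype changes were called raised and 0 lowered. The raised count was 45 without a trend in the prior, 64 to 65 with another pseudocount, filter or scaling, 75 with 1 fit over a set, 64 with edgeR and 76 with DESeq2, and 60 to 69 without 1 library. Lowered calls were 2 with 1 fit over a set (Cx3cl1 in WSB and xNOD), 1 under the replicate block (Cx3cl1 in xNOD) and 0 to 1 without 1 library. The interaction called 3 members, 0 under the replicate block, 0 without 129 (chosen after seeing the data) and 1 to 3 without 1 library. The F1 differences called 2, 1 without a trend in the prior, 0 under the replicate block and 3 with a pseudocount of 1. Those 3 held Ccl20 in xWSB but not Cxcl1 in xWSB, so they took in differences not called in the main fit. Without 1 library 1 to 3 were called, with Ccl20 in xWSB called each time. Deviations of same-numbered libraries had r over 0.1 in all 3 pairs of xWSB and in both pairs of NZO, and r above 0 in both pairs of 129 and of xNOD. Over all genotypes r ran from -0.57 to 0.37, with a median of 0.013 and 9 of 29 pairs over 0.1. Whether the numbers pair libraries was not tested. B6 and CAST each had 1 same-numbered pair, so in block fits that joined genotypes their changes rested on that pair. The block, fitted in 11 genotypes, gave 60 raised calls where the same genotypes had 54 without it, and 0 in xWSB in both. Counts for the strain effect (4 to 6), control level (6 to 8) and TM level (9) changed by no more than 1.5 times. Sign changed for Cxcl12 in 129 with median-of-ratios scaling (-0.010). Without 1 library, log2 changes that crossed 0 ranged from -0.11 to 0.15 (Cxcl12, 129), -0.048 to 0.13 (Cxcl12, NZO), -0.090 to 0.022 (Cxcl12, CAST), -0.21 to 0.15 (Cx3cl1, CAST), -0.11 to 0.56 (Cxcl5, xWSB) and -0.50 to 0.61 (Ccl2, xWSB); none of these had been called. Of 30 F1 differences of the other members, 10 changed sign, none above 0.53 in size. The cause of these changes was not tested. Depth limits Cxcl2, Ccl20 and Cxcl10 in controls, where a value often rested on 0 to 5 reads.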
